A study of Mus musculus with 4 samples.

Results

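The heterogeneous nuclear ribonucleoproteins (hnRNPs) and the poly(C)-binding proteins (PCBPs) are abundant RNA-binding proteins that coat nascent transcripts and steer splice site choice, export, stability and translation. They act beside and often against the SR proteins, and many of them adjust the splicing of their own transcripts. Some bind RNA through RNA recognition motifs, among them hnRNP A1, A2/B1, C, L, F and H1, while PCBP1, PCBP2 and hnRNP K use KH domains that prefer cytidine runs. In testis, members of these families and their germ cell paralogs take part in the large splicing program of meiotic and postmeiotic cells.

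The 10 genes of these families described here, among 37718 counted gene entries, are *Pcbp1*, *Pcbp2*, *Hnrnpk*, *Hnrnpa1*, *Hnrnpa2b1*, *Hnrnpc*, *Hnrnpl*, *Hnrnpu*, *Hnrnpf* and *Hnrnph1*. They were chosen by family with the genotype differences of these same counts already in view, so the differences between the genotypes given for them are a description and carry no test. RNA came from testis cells of mice that lack the Tudor domain protein TDRD6 (Tdrd6-/-) and of heterozygous controls (Tdrd6+/-), with 2 samples of each genotype. According to the paper, such preparations are mostly diplotene spermatocytes, and secondary spermatocytes and round spermatids were also counted in them. All 4 samples were taken from testes at 20 days post partum (dpp) and pooled at least 4 mice each. Cells positive for human CD4, a surface tag expressed from the *Tdrd6* promoter in mice of both genotypes, were collected with magnetic beads, and total RNA depleted of ribosomal RNA was sequenced. The deposited counts give fragments per gene, exon segment, junction and intron, and the samples are named below as replicates 1 and 2 of each genotype, with values always given in that order. Nothing in the labels says how the replicates of a genotype were kept separate, so p-values measure only the spread between these samples, which may be partly technical.

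*Tdrd6* itself checked the labels, at 1269 and 1412 CPM (counts scaled to the TMM-adjusted library total) in Tdrd6+/- and 11.35 and 12.50 CPM in Tdrd6-/- replicates 1 and 2. Depth was 26454326 to 31388750 counts on genes and 9603669 to 13937818 on introns, with the lowest intronic total in Tdrd6-/- replicate 2. The 6 markers of late prophase spermatocytes summed to 2063 to 2417 CPM in Tdrd6+/- and 2247 to 2313 CPM in Tdrd6-/-, with 2 of them called higher and 1 lower in Tdrd6-/-. The 5 spermatogonial markers summed to 19.60 to 21.08 CPM in Tdrd6+/- and 24.22 to 28.09 CPM in Tdrd6-/-, the 6 round spermatid markers to 9.203 to 13.10 and 19.68 to 21.66 CPM, and the 5 Sertoli cell markers to 33.85 to 38.53 and 37.68 to 44.08 CPM. The 5 Leydig cell markers lay at 17.15 to 22.07 CPM over all samples, the 2 peritubular at 2.635 to 3.605 CPM and the 2 leukocyte markers at 0.9334 to 1.298 CPM, and no marker was at 0 in all 4 samples. The round spermatid markers were thus higher in both Tdrd6-/- samples, with 2 of the 6 past the count filter and both of them called higher, and their part in the differences below was not tested. In these bulk samples fewer cells of a type and less RNA per cell cannot be told apart.

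Short sequences across the splice junctions that the results turn on are shown first. Each has the last 15 bases of the upstream exon in lower case and the first 15 bases of the downstream exon in capitals, 5′ to 3′ on the transcript, from GENCODE M21 (GRCm38/mm10). In *Pcbp2*, exon 2 joins exon 3, and exon 8 joins either exon 9, a 93 bp cassette exon, or exon 10. Reads over the junctions of exons 8-9, 8-10 and 9-10 separate transcripts with and without exon 9. In *Hnrnpu*, the junctions of the first exons are the ones called. The intervals spliced out are, for *Pcbp2* (plus strand), chr15:102473403-102474130 between exons 2 and 3, chr15:102484241-102485947 between exons 8 and 9, chr15:102484241-102487087 between exons 8 and 10 and chr15:102486041-102487087 between exons 9 and 10. For *Hnrnpu* (minus strand) they are chr1:178336159-178336952 between exons 1 and 2 and chr1:178335956-178336046 between exons 2 and 3.
Pcbp2 exons 2-3: cttatgcatggaaagGAAGTTGGCAGTATC
Pcbp2 exons 8-9: tttgcaggtggtcagGACAGGTACAGCACA
Pcbp2 exons 8-10: tttgcaggtggtcagGCCTATACCATTCAA
Pcbp2 exons 9-10: ggaccacctctagagGCCTATACCATTCAA
Hnrnpu exons 1-2: aacagcaggcgggagGAGACGGCAAAACAG
Hnrnpu exons 2-3: aaacaagtacagcagAGCCAAGTCTCCTCA

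All 10 genes were detected in every sample. Per kb of annotated exon, *Hnrnpa2b1* had the highest level, with 138.5 ± 20.58 CPM per kb (SD, n = 4), and it ranked first in each of the 4 samples. *Hnrnpa2b1* encodes an RRM protein that binds UAG-containing RNA and is among the core proteins of hnRNP particles. *Hnrnpu*, which codes for the scaffold attachment factor SAF-A, followed with 80.69 ± 14.20 CPM per kb. *Pcbp2* had 71.00 ± 30.14 CPM per kb and the widest spread of the 10, with the genotypes apart. *Hnrnpf* (67.09 ± 2.579), *Hnrnpk* (61.60 ± 6.997), *Pcbp1* (57.29 ± 9.710), *Hnrnph1* (49.67 ± 5.300), *Hnrnpl* (43.51 ± 8.344) and *Hnrnpc* (35.69 ± 3.843 CPM per kb) came next. *Hnrnpa1* was the lowest, at 5.229 ± 0.6039 CPM per kb. Neighbours in this order had overlapping ranges over the samples, apart from *Hnrnpa2b1* over *Hnrnpu* and *Hnrnpc* over *Hnrnpa1*, whose ranges were separate. *Pcbp2* ranked 3 and 2 in Tdrd6+/- replicates 1 and 2 and 7 in both Tdrd6-/- samples. The exon length used for *Pcbp2*, 3577 bp over annotated transcripts, is longer than the exon segments counted in its entry. Its level per kb may thus be too low, and its place in the order is uncertain.

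**Figure D1:**
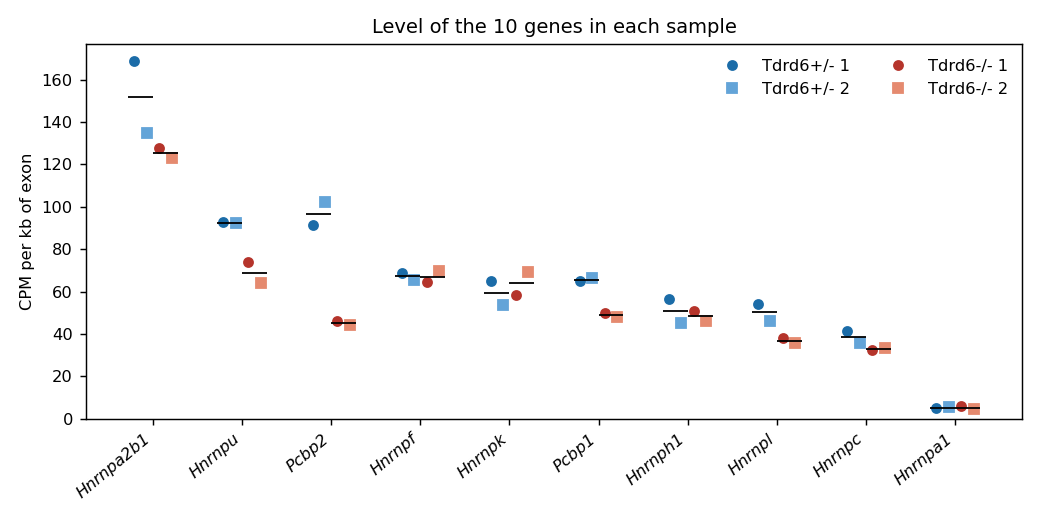
Level of each gene in CPM per kb of annotated exon (vertical axis) in the 4 samples, with genes ordered by their mean and black lines at the mean of each genotype (n = 2). The Pcbp2 points of the genotypes are separate, at 91.4 and 102.2 in Tdrd6+/- and 46.2 and 44.2 in Tdrd6-/-, while Hnrnpa1 lies near 5 in all samples.

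The level of *Hnrnpa1*, which codes for a general splicing repressor, has to be read with its many processed copies in mind. Of the 3238 windows of 50 bases in all its M21 transcripts, 28.2% also occur in annotated transcripts of 20 other genes. The exon length used for its level was 1918 bp, so these windows also cover sequence outside it. *Hnrnpa1l2-ps* and *Hnrnpa1l2-ps2*, 2 of these copies, were counted at 0 in all samples, and were picked as examples after their values were seen. *Hnrnpf* shared 43.2% of its windows with 9 other genes, *Hnrnpk* 14.5% with 2 and *Hnrnpc* 8.28% with 2. For the other 6 members the share was 0 to 1.77%, with 0.428% for *Pcbp2* and none for *Pcbp1*. How the authors' counting treated fragments that fit several places is not given in the sources used here, so the levels of *Hnrnpa1* and *Hnrnpf* are uncertain.

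Of the 10 genes, 4 were called lower in Tdrd6-/- at a false discovery rate of 0.1 in the fit over all genes, and none higher. Over the 16555 genes tested, 3.78% were called lower and 1.02% higher. The median log2 fold change of the members was -0.24, against 0.01 over all genes tested. The genotypes did not overlap in CPM for 6 of the 10, where 43.5% of all genes tested did not overlap. Since the members were chosen with these differences known, nothing is read from these counts, and the calls other than *Pcbp2* are close to the threshold.

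*Pcbp2*, which codes for a KH domain protein that binds C-rich 3′ UTRs and viral RNA, had the largest difference of the 10. It lies on the plus strand of chromosome 15 (mm10, 102470539 to 102500061) and was counted at 327.0 and 365.6 CPM in the Tdrd6+/- samples and at 165.2 and 158.1 CPM in the Tdrd6-/- samples. Both Tdrd6-/- samples were thus below both Tdrd6+/- samples. The mean in Tdrd6-/- was 46.68% of that in Tdrd6+/- (log2 fold change -1.10, standard error 0.13). *Pcbp2* was called in every alternative that kept its entry and without any 1 sample. Its entry also holds *Gm27406*, a small RNA gene that overlaps exon 9, and the segments of that gene outside exon 9 received 11 to 47 counts each.

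*Pcbp1*, an intronless gene on chromosome 6 whose protein delivers iron as well as binding poly(C) RNA, was at 118.5 and 121.8 CPM in Tdrd6+/- and 91.01 and 88.05 CPM in Tdrd6-/- (log2 fold change -0.42, standard error 0.13). *Hnrnpl*, which codes for a binder of CA repeats, was at 321.8 and 275.0 CPM in Tdrd6+/- and 226.6 and 212.6 CPM in Tdrd6-/- (log2 fold change -0.44, standard error 0.13). *Hnrnpu* had the highest count of the 10 before length was considered, at 1074 and 1070 CPM in Tdrd6+/- and 858.6 and 740.5 CPM in Tdrd6-/- (log2 fold change -0.42, standard error 0.13). Its entry is joined with that of another annotated gene that overlaps it, and fragments of the pair cannot be told apart in the gene count. In these 3 genes the genotypes did not overlap, and the means in Tdrd6-/- were 73.59% to 74.57% of those in Tdrd6+/-. The calls of *Pcbp1* and *Hnrnpu* were lost without any 1 of the 4 samples, and that of *Hnrnpl* without any 1 except Tdrd6+/- replicate 2.

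The other 6 members were not called. *Hnrnpa2b1* was at 410.3 and 328.1 CPM in Tdrd6+/- and 311.2 and 299.4 CPM in Tdrd6-/- (log2 fold change -0.27, standard error 0.14). *Hnrnpc*, whose protein covers uridine tracts, was at 118.2 and 102.0 CPM in Tdrd6+/- and 93.70 and 96.05 CPM in Tdrd6-/- (log2 fold change -0.21, standard error 0.13). The genotypes did not overlap in these 2 genes, but in CPM the distance between the Tdrd6+/- replicates was larger than that between the genotype means. *Hnrnpa2b1* was called without Tdrd6+/- replicate 2, at -0.42. *Hnrnpk*, a KH domain protein gene like *Pcbp1* and *Pcbp2*, was at 367.3 and 300.9 CPM in Tdrd6+/- and 330.0 and 389.9 CPM in Tdrd6-/- (log2 fold change 0.11, standard error 0.14). *Hnrnph1*, which codes for a protein that binds G tracts, was at 330.8 and 263.6 CPM in Tdrd6+/- and 297.5 and 268.7 CPM in Tdrd6-/- (log2 fold change -0.07, standard error 0.14). Its relative *Hnrnpf* was at 209.8 and 199.6 CPM in Tdrd6+/- and 196.0 and 212.3 CPM in Tdrd6-/- (log2 fold change 0.00, standard error 0.13). *Hnrnpa1* was at 9.317 and 10.70 CPM in Tdrd6+/- and 11.29 and 8.811 CPM in Tdrd6-/- (log2 fold change 0.01, standard error 0.22). The samples of the genotypes overlapped in each of these last 4 genes.

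A further 25 genes of the same families were listed beside the members, of which 24 were tested (*Ralyl* had too few counts) and 4 were called lower, with none higher. Over all genes tested, 3.78% were called lower and 1.02% higher. The genotypes did not overlap in CPM for 12 of the 25, where 43.5% of all genes tested did not overlap. The median log2 fold change of the 24 was -0.12. This list was also set with earlier results of these data known. The adjusted p-values below are thus descriptive, and nothing is read from the number called. *Hnrnpd*, the gene of the AU-rich element binder AUF1, had 45.44 and 42.65 CPM in Tdrd6+/- and 20.65 and 16.56 CPM in Tdrd6-/- (log2 fold change -1.24, standard error 0.17, adjusted p = 9.85e-05, quasi-likelihood test of edgeR adjusted after Benjamini and Hochberg). *Hnrnpul2*, a relative of *Hnrnpu*, fell by 0.81 on the log2 scale (adjusted p = 0.00225, edgeR), *Hnrnpll*, a paralog of *Hnrnpl*, by 0.56 (adjusted p = 0.0244) and *Hnrnpa3* by 0.64 (adjusted p = 0.0854). These 4 genes did not overlap between the genotypes, and the calls of *Hnrnpll* and *Hnrnpa3* were lost without Tdrd6+/- replicate 1 and without Tdrd6-/- replicate 2. The 3 with the highest level per kb were not called: *Hnrnpul1* (151.5 CPM per kb, log2 fold change -0.17, adjusted p = 0.618, edgeR), the poly(C)-binding protein gene *Pcbp3* (126.1 CPM per kb, log2 fold change -0.04, adjusted p = 0.946) and *Ptbp2*, a polypyrimidine tract binder gene (96.82 CPM per kb, log2 fold change -0.05, adjusted p = 0.917). *Pcbp3* thus exceeded *Pcbp2* per kb of exon in these cells, and its counts of 8721, 11579, 11684 and 11551 in the 2 Tdrd6+/- samples and then the 2 Tdrd6-/- samples showed no such genotype gap.

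**Figure D2:**
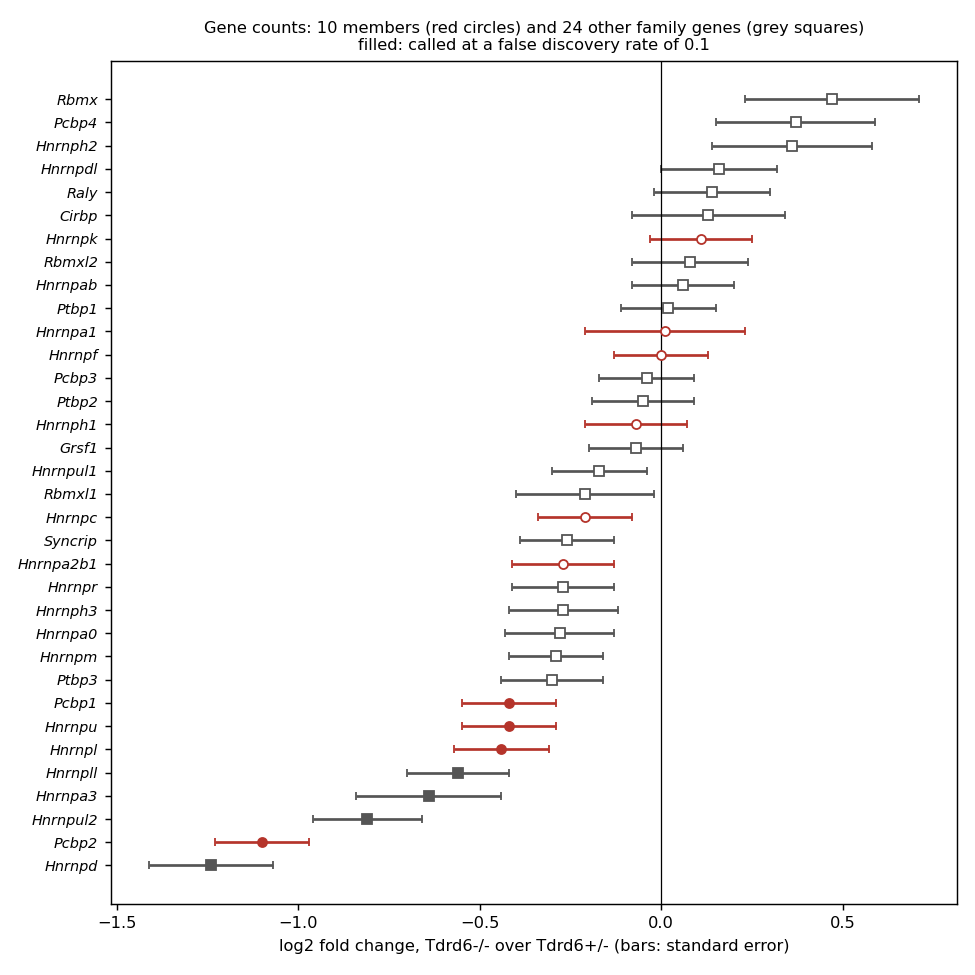
Log2 fold change of the gene counts, Tdrd6-/- over Tdrd6+/- (horizontal axis, edgeR, n = 2 against 2), for the 10 members (red circles) and the 24 other family genes tested (grey squares), with standard errors as bars and filled symbols for genes called at a false discovery rate of 0.1. Every filled symbol lies left of 0, from Hnrnpd at -1.24 to Pcbp1 and Hnrnpu at -0.42.

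The genotype difference of *Pcbp2* varied along the transcript. The features counted in its entry did not match the gene's annotated transcripts in number. Its 15 exons were therefore placed by their order on a chosen transcript, ENSMUST00000077037. All 32 junction flanks checked held at least the count of their junction. Exons 2 to 5 together had 149.0 and 189.7 CPM in Tdrd6+/- and 103.0 and 96.95 in Tdrd6-/-, so that Tdrd6-/- kept 59.0% of the Tdrd6+/- mean. Over exons 6 to 14 it kept 45.2%, and over exon 15, which carries nearly all of the 3′ UTR, 38.9%, with 121.1 and 118.3 CPM in Tdrd6+/- and 47.62 and 45.40 in Tdrd6-/-. Single exons from exon 2 to exon 15 ranged from -0.65 to -1.36 on the log2 scale. The first exon went against this order, with 152 and 289 counts in Tdrd6+/- and 78 and 101 in Tdrd6-/-, a log2 difference of -1.52. Its junction with exon 2 held 61 and 123 counts in Tdrd6+/- and 31 and 44 in Tdrd6-/-. That of exons 2-3 held 478 and 759 in Tdrd6+/- and 480 and 433 in Tdrd6-/-. Junction counts from this exon 1 into exon 2 were thus far fewer than those out of exon 2.

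Differential usage, the count of a feature set against the rest of its gene, was tested for each exon segment and junction with DESeq2 at the same false discovery rate. Over all segments and junctions tested, 0.172% were called used more in Tdrd6-/-. Of the members' 423 segments and junctions, 292 passed the filters and 7 were called, all of them used more in Tdrd6-/-. Exon 2 of *Pcbp2* (chr15:102473261-102473402, 142 bp with 69 coding bases, holding the start codon) took 10.8% and 13.3% of the gene's count in Tdrd6+/- and 16.4% and 16.7% in Tdrd6-/- (usage log2 fold change 0.54, standard error 0.13). Its own count was not higher, at 35.36 and 48.71 CPM in Tdrd6+/- and 27.16 and 26.46 in Tdrd6-/-. The junctions that follow it, among them exons 2-3 shown above, had usage log2 fold changes of 0.36 to 0.49 up to exon 5 and were not called. The call of exon 2 was lost without Tdrd6+/- replicate 1 and without either Tdrd6-/- sample.

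An unannotated junction of *Pcbp2*, number 39 of the gene's features, was the other call. It held 59 and 68 counts in Tdrd6+/- and 95 and 83 in Tdrd6-/-, higher in both Tdrd6-/- samples while the gene count was lower (usage log2 fold change 1.37, standard error 0.26). The files give no position for it. Its call was lost without Tdrd6-/- replicate 1, and it was the one call of the 7 that edgeR's usage test also made. Of the 8 unannotated junctions, 5 were below the count filter, and the 8 together kept 60.1% of their Tdrd6+/- level against 48.3% for the 16 annotated junctions.

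**Figure D3:**
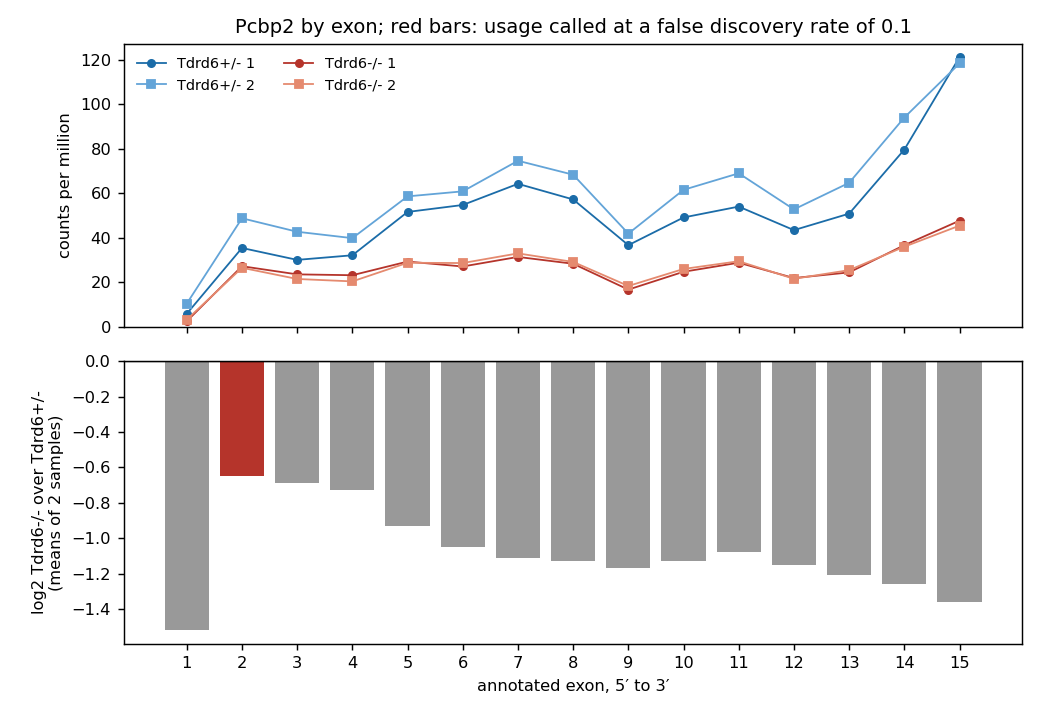
Upper panel, CPM on each of the 15 annotated exons of Pcbp2 in the 4 samples. Lower panel, log2 ratio of the genotype means, Tdrd6-/- over Tdrd6+/- (n = 2 each), with the exon called in differential usage in red. The bars go from -0.65 at exon 2 to -1.36 at exon 15, with exons 7 to 12 nearly level between -1.08 and -1.17. Exon 1 stands apart at -1.52.

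The cassette exon 9 of *Pcbp2* (chr15:102485948-102486040, 93 bp, all coding) was skipped to a like extent in all samples. From the exons 8-10 junction set against the mean of exons 8-9 and 9-10, the share skipped was 42.1% (Wilson 95% interval 38.7% to 45.7%) and 43.9% (40.8% to 47.1%) in the Tdrd6+/- samples, and 42.6% (38.1% to 47.2%) and 42.8% (38.4% to 47.3%) in the Tdrd6-/- samples. The means of 43.0% ± 1.3 and 42.7% ± 0.14 (SD, n = 2 each) differed by less than the spread of the Tdrd6+/- samples. The intervals cover counting error only. Skipping of exon 12 rested on 3 to 13 counts per sample, 0.519% and 1.69% in Tdrd6+/- and 1.35% and 2.17% in Tdrd6-/-, and a difference was not detectable at this depth.

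In *Hnrnpu* the first 2 exons and their junctions were the features called. The gene lies on the minus strand of chromosome 1 (mm10, 178321108 to 178337797), and its first exons were placed on ENSMUST00000161769. They were placed by order from the 5′ end, since the segments of the entry did not match the annotation in number. Exon 1 (chr1:178336953-178337728) had 80.96 and 100.1 CPM in Tdrd6+/- and 99.74 and 100.8 in Tdrd6-/-, and exon 2 (chr1:178336047-178336158) had 39.06 and 45.05 in Tdrd6+/- and 46.64 and 46.43 in Tdrd6-/-. Exon 2 was thus higher in both Tdrd6-/- samples and exon 1 overlapped between the genotypes, while the gene count was lower. Their usage was called, with log2 fold changes of 0.65 (standard error 0.13) for exon 1 and 0.60 (standard error 0.12) for exon 2.

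The *Hnrnpu* junctions of exons 1-2 and 2-3, shown above, were called as well. Fragments over these junctions are also counted on the exons they join, so the 4 calls share fragments and are not independent. The first held 299 and 458 counts in Tdrd6+/- and 519 and 557 in Tdrd6-/- (usage log2 fold change 0.73, standard error 0.17). The second held 504 and 544 counts in Tdrd6+/- and 756 and 636 in Tdrd6-/- (usage log2 fold change 0.61, standard error 0.12). In both, the Tdrd6-/- counts were above the Tdrd6+/- counts, but the library totals were also higher, and in CPM the junction of exons 1-2 overlapped, at 11.42 and 16.44 in Tdrd6+/- and 16.41 and 17.40 in Tdrd6-/-. The calls of both exons and of the junction of exons 1-2 were lost without Tdrd6+/- replicate 1 and without Tdrd6-/- replicate 2, and that of exons 2-3 without either Tdrd6-/- sample. The 11 junctions in use from exon 3 on had 547.0 and 571.4 CPM in Tdrd6+/- and 422.8 and 376.4 in Tdrd6-/-, which is 71.5% of the Tdrd6+/- mean, with single junctions between -0.18 and -0.61 on the log2 scale. The segment with the most counts, number 9 of the entry, was at 254.5 and 207.9 CPM in Tdrd6+/- and 157.6 and 137.0 in Tdrd6-/-, a log2 difference of -0.65. That segment was not placed on a transcript and may belong to the joined gene. Counts of the joined gene also enter the total against which usage in this entry is set.

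**Figure D4:**
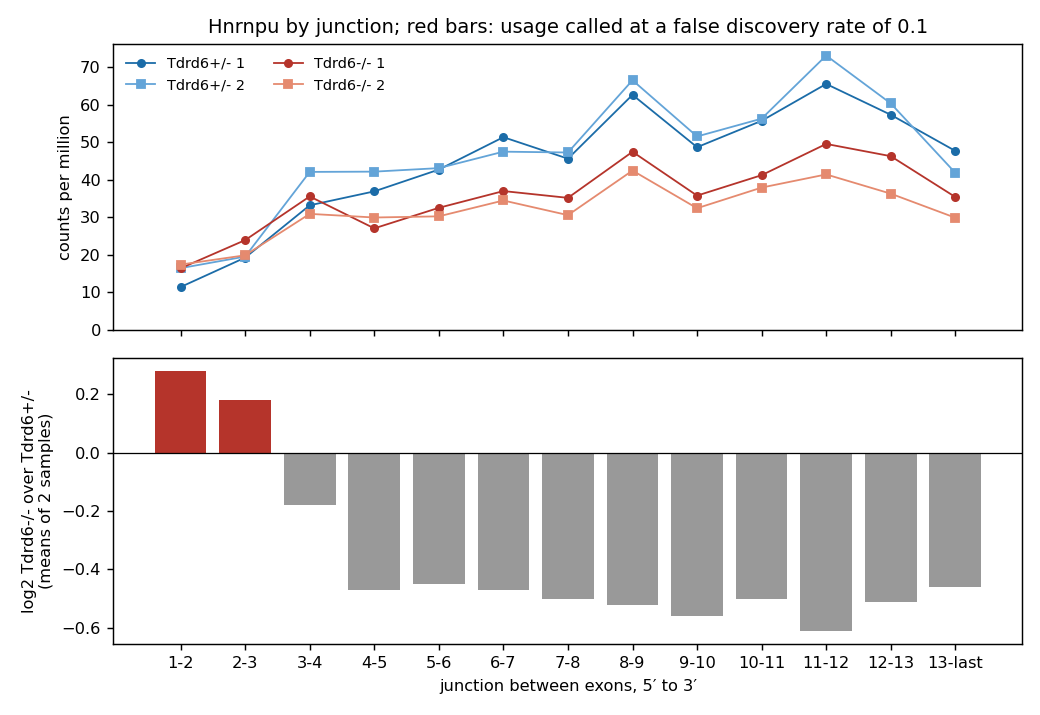
Upper panel, CPM on the 13 junctions of Hnrnpu in use, 5′ to 3′ and named by the exons they join, in the 4 samples. Lower panel, log2 ratio of the genotype means, Tdrd6-/- over Tdrd6+/- (n = 2 each), with called junctions in red. The first 2 bars are above 0 and the other 11 lie between -0.18 and -0.61.

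The balance of 5′ and 3′ junctions was computed for all genes with enough junctions, as the log2 ratio of the counts on the junctions nearest the 5′ end to those nearest the 3′ end, with equal numbers on each side. Over 4753 genes its median was -0.472 and -0.475 in Tdrd6+/- and -0.409 and -0.406 in Tdrd6-/-, a median difference of 0.063 with 5% and 95% quantiles of -0.419 and 0.561. *Pcbp2* went from -0.363 and -0.335 to 0.063 and 0.038, a difference of 0.399 at the 89.2 percentile of all genes. *Hnrnpl* differed by 0.484 (92.9 percentile) and *Hnrnpu* by 0.268 (80.1 percentile). *Hnrnpk*, *Hnrnpc* and *Hnrnph1* differed by 0.047, 0.021 and -0.027. The members with the larger shifts were thus within the range of the genes as a whole, and the part of RNA integrity in them was not tested.

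Of the other members, *Hnrnpa2b1* had 1 call, exon segment 10, which was not placed on a transcript. It was at 40.21 and 35.54 CPM in Tdrd6+/- and 40.51 and 41.21 CPM in Tdrd6-/- (usage log2 fold change 0.43, standard error 0.11), with 1053 and 990 counts in Tdrd6+/- and 1281 and 1319 in Tdrd6-/-, and the call was lost without Tdrd6+/- replicate 1 and without either Tdrd6-/- sample. Among its junctions, number 24 was nearest to a call, with 367 and 275 counts in Tdrd6+/- and 399 and 482 in Tdrd6-/- (usage log2 fold change 0.51, standard error 0.15).

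*Hnrnpl* had no call, but its 2 nearest features lie side by side at the 5′ end of the gene. Segment 8 (chr7:28810940-28811168) held 192 and 182 counts in Tdrd6+/- and 244 and 240 in Tdrd6-/- (usage log2 fold change 0.59, standard error 0.17). The junction that leaves it (chr7:28811169-28813278) held 61 and 68 counts in Tdrd6+/- and 93 and 102 in Tdrd6-/- (usage log2 fold change 0.81, standard error 0.26). In both, each Tdrd6-/- sample was above each Tdrd6+/- sample. Fragments over this junction are also counted on segment 8, so the 2 features are not independent.

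In *Hnrnpf*, segment 14 (usage log2 fold change 0.35, standard error 0.11) and junction 29 (0.40, standard error 0.14) came nearest and were not called. In *Hnrnpk* these were segment 42 (chr13:58398726-58399155, usage log2 fold change -0.56, standard error 0.23) and a junction at chr13:58394365-58394477 (0.21, standard error 0.12), and in *Hnrnph1* segment 46 (chr11:50386322-50386389, -0.40, standard error 0.15) and a junction at chr11:50379624-50379820 (0.23, standard error 0.15). In *Hnrnpc* they were segment 4 (usage log2 fold change 0.17, standard error 0.13) and a junction at chr14:52075727-52077402 (0.20, standard error 0.15). *Hnrnpa1* had 1 segment past the filters, number 11, with a usage log2 fold change of -0.24 (standard error 0.24), and *Pcbp1* has a single segment, for which usage is not defined.

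The members have 100 counted introns, of which 54 passed the filters and 1 was called, where 1.94% of all introns tested were called in either direction. This was intron 1 of *Pcbp2* (chr15:102470804-102473260, 2457 bp), between the noncoding exon 1 and exon 2. Few fragments spanned the junction of these exons, as given above. Its position was taken from its order only, since the 13 introns counted are fewer than those of the 15-exon transcript. It held 782 and 801 counts in Tdrd6+/- and 909 and 851 in Tdrd6-/-, or 20.3% and 22.0% of the gene's intronic counts in Tdrd6+/- against 28.7% and 33.1% in Tdrd6-/- (usage log2 fold change 0.73, standard error 0.17). Scaled to the library's intronic total (intronic CPM) it was at 56.11 and 65.34 in Tdrd6+/- and 70.17 and 88.61 in Tdrd6-/-, and the genotypes did not overlap. The call was lost without Tdrd6+/- replicate 1, without Tdrd6-/- replicate 2, in edgeR's usage test and with a dispersion trend pooled over the table. In the full M21 annotation, 3 of the 31 *Pcbp2* transcripts have an exon within this intron, so that fragments on it may be exonic in those transcripts. The other 12 introns of *Pcbp2* summed to 219.7 and 232.2 intronic CPM in Tdrd6+/- and 174.1 and 179.3 in Tdrd6-/-, a log2 difference of -0.35, where the gene count differed by -1.10.

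Intronic counts were also set against the gene count, whether they came from unspliced RNA or from exons of other transcripts. Over all genes there were 52.69 and 41.91 intronic counts per 100 gene counts in Tdrd6+/- and 42.49 and 30.60 in Tdrd6-/- replicates 1 and 2. *Pcbp2* had 44.89 and 35.81 in Tdrd6+/- and 60.57 and 50.85 in Tdrd6-/-, with both Tdrd6-/- samples above both Tdrd6+/- samples (log2 difference 0.47). Its intronic CPM was 275.8 and 297.5 in Tdrd6+/- and 244.3 and 267.9 in Tdrd6-/-, a log2 difference of -0.16 beside -1.10 for the gene count. As a median over its introns, the log2 difference of *Pcbp2* was 0.21. With the intronic share of each library divided out it was 0.86, and 6 further members were then above 0, with 0.43 for *Hnrnpa1*, 0.41 for *Hnrnpl*, 0.37 for *Hnrnpu*, 0.35 for *Hnrnph1*, 0.34 for *Hnrnpa2b1* and 0.22 for *Hnrnpk*. This division raises every gene, since the ratio over all genes was itself lower in Tdrd6-/- (log2 difference -0.37). How many of all genes are above 0 by this measure was not computed, so nothing is read from the number of members.

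*Hnrnpc* had 84.52 and 72.73 intronic counts per 100 gene counts in Tdrd6+/- and 67.26 and 46.88 in Tdrd6-/-, and *Hnrnpf* had 35.83 and 30.72 in Tdrd6+/- and 27.89 and 17.73 in Tdrd6-/-, log2 differences of -0.46 and -0.54 beside -0.37 for all genes. These values leaned on single samples, with -0.75 and -0.91 without Tdrd6-/- replicate 1 and -0.23 and -0.25 without Tdrd6-/- replicate 2. With the library's intronic share divided out they were -0.10 and -0.19, and as a median over introns *Hnrnpf* was at -0.03. *Hnrnpa1* had 65.98 and 60.40 in Tdrd6+/- and 70.59 and 60.28 in Tdrd6-/-, a high ratio over a gene count that may be incomplete, as described above. *Hnrnpa2b1* lay between 25.13 and 27.26 in all samples, *Hnrnpl* between 17.43 and 19.38, *Hnrnpu* between 15.93 and 18.42, *Hnrnph1* between 13.22 and 14.09 and *Hnrnpk* between 8.054 and 9.909, and their log2 differences between the genotypes were -0.15 to 0.03.

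**Figure D5:**
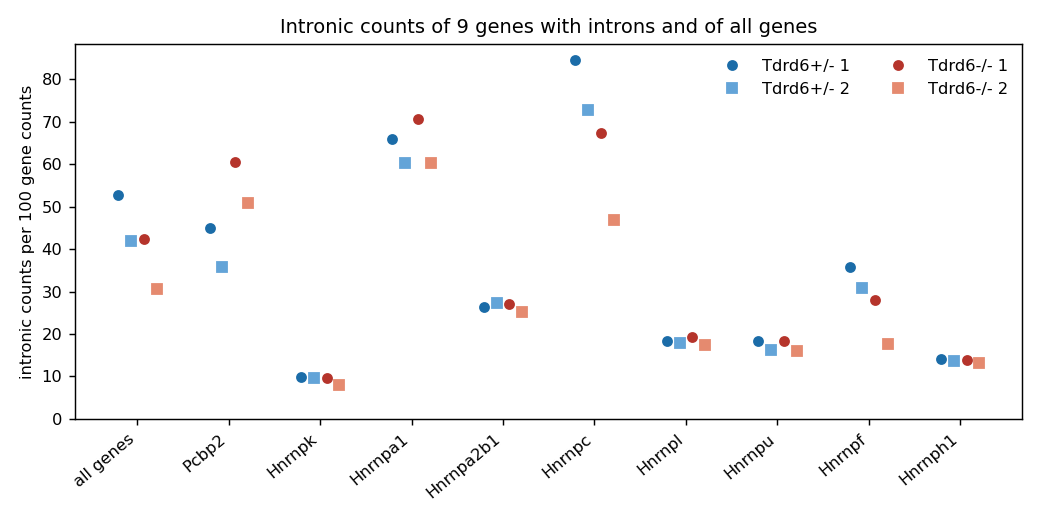
Intronic counts per 100 gene counts (vertical axis) in the 4 samples for all genes together and for the 9 members with introns. Pcbp2 is higher in Tdrd6-/- (60.57 and 50.85) than in Tdrd6+/- (44.89 and 35.81), Hnrnpc and Hnrnpf are lower, and the other members overlap or differ by at most 0.15 on the log2 scale. Divided by the library's intronic share, which raises every gene, 7 of the 9 have log2 differences above 0. The share of all genes above 0 was not computed.

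In each of the other members with introns, the intron nearest to a call and the intron with the most counts were as follows. In *Hnrnpf* the former was a listed gap of 9 bp (chr6:117906840-117906848) with 136 and 177 counts in Tdrd6+/- and 206 and 183 in Tdrd6-/- (usage log2 fold change 0.74, standard error 0.25). Its intron with the most counts, 9772 bp long (chr6:117907209-117916980), held 1081 and 910 counts in Tdrd6+/- and 907 and 540 in Tdrd6-/- (usage log2 fold change -0.31, standard error 0.18). In *Hnrnpc* a single 13598 bp intron (chr14:52084417-52098014) was both, with 1314 and 1007 counts in Tdrd6+/- and 896 and 614 in Tdrd6-/- (usage log2 fold change -0.33, standard error 0.16), and held 42.6% to 50.2% of the gene's intronic counts. These long introns gave much of the intronic signal of both genes.

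Introns are numbered along the chromosome, as in the deposited counts. In the minus-strand genes *Hnrnpu*, *Hnrnpa2b1* and *Hnrnpk*, intron 1 is thus the one nearest the 3′ end. In *Hnrnpu*, intron 1 had the most counts, 1410 and 1119 in Tdrd6+/- and 1379 and 926 in Tdrd6-/- (usage log2 fold change 0.07, standard error 0.17). Intron 11 of this gene was nearest to a call (0.30, standard error 0.21). In *Hnrnpa2b1* these were intron 10, with 914 and 744 counts in Tdrd6+/- and 803 and 715 in Tdrd6-/- (-0.08, standard error 0.16), and intron 3 (0.32, standard error 0.22). *Hnrnpk* intron 12 (chr13:58401173-58402063) held 206 and 224 counts in Tdrd6+/- and 264 and 298 in Tdrd6-/- (0.26, standard error 0.22) and was both. For *Hnrnpl* they were intron 9 (chr7:28817405-28817833; usage log2 fold change -0.11, standard error 0.19) and intron 3 (chr7:28811169-28813278; -0.26, standard error 0.21), and for *Hnrnph1* intron 3 (chr11:50377803-50378290; -0.09, standard error 0.21) and intron 1 (chr11:50377148-50377313; 0.25, standard error 0.28). No intron of *Hnrnpa1* passed the filters, and its largest, intron 10 (chr15:103244029-103244255), held 40 to 73 counts. No intron of these 8 genes was called with all samples and no replicate block, and the 9 bp gap of *Hnrnpf* was called with a replicate block, without Tdrd6+/- replicate 2 and without Tdrd6-/- replicate 1.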

How the data were processed

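RNA of hCD4+ testis cells from 2 Tdrd6+/- and 2 Tdrd6-/- samples was sequenced from directional libraries. The deposited counts are raw numbers of fragments per gene, exon segment, junction and intron, which the authors obtained after alignment to mm10 with GSNAP and Ensembl gene models. The submitters' notes name bcl2fastq 1.8.4. The counting program is not given in the sources used here. Entries that join overlapping genes (940) were kept, since *Pcbp2* is in one.

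Gene counts were filtered with filterByExpr, scaled by TMM and fitted over the whole table with edgeR 4.0.16 (quasi-likelihood test, R 4.3.3). Where a feature (intron, exon segment or junction) had 10 or more counts in total, its usage was tested with the models of DEXSeq and JunctionSeq, which were fitted with DESeq2 1.42.0 because neither package was installed. Benjamini-Hochberg adjustment was over each whole table, and the false discovery rate was 0.1. Fold changes are Tdrd6-/- over Tdrd6+/-. Exons, junctions and sequences were placed with GENCODE M21 transcripts. Exon lengths and the matching of feature numbers used only transcripts numbered up to 185300, since later ones postdate the authors' annotation. The scripts were tested on simulated data. In simulations where a feature and the rest of its gene varied independently, more usage calls were false than the false discovery rate allows.

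The members, lists and tests were chosen with earlier results of these data known, so no p-value is given for a member. Those given for the other family genes are descriptive. A planned permutation test of the intronic ratios was left out for the same reason, and with 2 samples against 2 it could not go below p = 0.33. Named were all members, their called features, otherwise the feature of each kind with the smallest adjusted p, the intron with the most counts, and of the other family genes those called and the 3 with the highest level per kb. An item on the list of other genes is not reported here. Alternatives were DESeq2, other size factors and filters, a replicate block, each sample left out in turn, joined entries left out, edgeR's usage test and other references for usage.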

Additional observations from a re-analysis of the deposited data

How the results depend on the processing

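Of the 4 members called lower, 2 remained called with median-of-ratios size factors and 2 with all genes of at least 10 counts (*Pcbp2* and *Hnrnpl* in each). With joined entries left out, which removes *Pcbp2* and *Hnrnpu*, 2 were called. Leaving out 1 sample gave 1 to 3 called members and 257 to 1064 called genes in all, the lowest without Tdrd6-/- replicate 2. The other family genes called lower numbered 2 to 5 in these fits. Fold changes near 0 changed sign without being called. With a sample left out, *Hnrnpk* ranged from -0.03 to 0.27, *Hnrnpa1* from -0.18 to 0.18, *Hnrnpf* from -0.05 to 0.05 and *Hnrnph1* from -0.22 to 0.11, and *Hnrnpf* was at 0.01 in DESeq2, with the other size factors and with the other filter.

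Calls of introns and of exon segments depended most on the fit, and the cause was not tested. The 561 introns called (1 of the members) became 2 (0) in edgeR's usage test, 1262 (3) with usage set against the exonic count, and 4 to 1175 (0 to 2) with a sample left out. The 406 segments and junctions called (7 of the members) became 90 (1) in edgeR's usage test and 53 to 874 (1 to 15) with a sample left out, and 1 of the members' remained without joined entries. A dispersion trend pooled over own and rest counts, chosen after seeing the data, gave 1 intron (0) and 60 segments and junctions (1).

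Samples with the same replicate number did not deviate together (correlation of deviations -0.0995 over genes and 0.0841 over introns), so the numbers were not taken to pair the samples. With a replicate block, 1046 genes (the same 4 members), 882 introns (2 of the members, *Hnrnpf* intron 2 added, as also without Tdrd6+/- replicate 2 and without Tdrd6-/- replicate 1) and 365 segments and junctions (6 of the members, *Hnrnpa2b1* segment 10 lost) were called, and *Hnrnpa1* was at -0.0015.

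The level of *Hnrnpa2b1* was 26.5 times that of *Hnrnpa1* per kb and 33.6 times without length correction, where *Hnrnpu* and no longer *Hnrnpa2b1* is the highest member. The intronic ratio of *Pcbp2* (log2 difference 0.47) was 0.86 with the library's intronic share divided out and 0.21 as a median over introns, and with the share divided out that of *Hnrnpk* changed from -0.15 to 0.22, *Hnrnpa2b1* from -0.04 to 0.34, *Hnrnpu* from -0.01 to 0.37 and *Hnrnph1* from -0.04 to 0.35. *Hnrnpa1* and *Hnrnpl* moved to 0.43 and 0.41, and *Hnrnpc* and *Hnrnpf* stayed below 0. With 2 samples a genotype, small differences could not be separated from the spread.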
